A study of Homo sapiens with 118 samples.

Results

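The genes described here carry gluconeogenesis and glycogen metabolism in the liver: G6PC, PCK1, PCK2, FBP1, GYS2, PYGL, GCKR, SLC2A2 and SLC37A4. They were found by name, as the rows of the count table whose gene symbol equals one of these 9 names. Each name matched 1 detector probe, so the set held 9 of 22068 probes. HepaRG, a human line derived from a liver tumour, was thawed and exposed after differentiation. The cells received 1 of 8 histone deacetylase inhibitors for 72 hours with daily renewal, and their lysates were profiled by TempO-Seq, which joins 2 neighbouring detector oligonucleotides on their transcript and counts the joined products by sequencing. The comparison asked how far the members' levels moved as the concentration of each inhibitor rose.

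The lowest of the 5 concentrations of a chemical is called C1 and the highest C5, and each was tested in 3 batches of HepaRG cells that are the replicates 1, 2 and 3. Apicidin was given at 0.0417, 0.125, 0.376, 0.5 and 0.86 µM, mocetinostat at 0.177, 0.532, 1.60, 2.5 and 3.9 µM, and panobinostat at 0.00147, 0.00440, 0.0132, 0.0396 and 0.084 µM. Scriptaid was given at 4.94, 14.8, 44.5, 60 and 94.5 µM, tacedinaline at 1.14, 3.43, 10.3, 30.9 and 44 µM, and vorinostat at 0.405, 1.21, 3.64, 10.9 and 23.5 µM. Trichostatin A was given at 0.0188, 0.0564, 0.169, 0.508 and 1.52 µM. For valproic acid the dose labels read 100.5, 301, 904, 2713 and 3038, and the unit of these numbers is not settled, since 2 labels of the series give different scales. There were 40 groups, of which 38 had 3 libraries, while batch 3 was missing from panobinostat C3 and from trichostatin A C4. Solvent controls were not used here, so C1 of the same chemical was the reference in every comparison, and a change that was complete by C1 could not show. The contrasts of C2, C3, C4 and C5 with C1 share their C1 libraries and are not independent of each other. Scriptaid, tacedinaline and vorinostat lay on plate E and the other 5 chemicals on plate H, so plate and chemical cannot be told apart.

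Between meals the liver releases glucose from 2 sources, the breakdown of stored glycogen and new synthesis from lactate, glycerol and amino acids. Phosphoenolpyruvate carboxykinase (PCK1 in the cytosol, PCK2 in mitochondria) opens the gluconeogenic branch and fructose-1,6-bisphosphatase (FBP1) acts midway, while liver glycogen synthase (GYS2) and liver glycogen phosphorylase (PYGL) build and degrade the store. Both routes meet at glucose 6-phosphate, which the transporter SLC37A4 carries into the endoplasmic reticulum, where the catalytic subunit of glucose-6-phosphatase (G6PC, now named G6PC1) frees the glucose that leaves through the carrier GLUT2 (SLC2A2). GCKR binds glucokinase, the liver enzyme of glucose phosphorylation, and holds it inactive when glucose is low. Several of these genes are textbook marks of the mature hepatocyte.

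Levels are given as CPM, a probe's share of all counts in a library on a fixed scale, after TMM scaling of the 118 libraries together. The probes differ in efficiency, so levels are compared between libraries and never between genes. Totals ranged from 1061359 to 5250260 counts per library, with a median of 3702007. A probe was called when edgeR's quasi-likelihood test gave a Benjamini-Hochberg adjusted p under 0.05, over all probes tested in that chemical, and a change of at least 1.5-fold. Some libraries stood apart from their group mates and touch results below. Trichostatin A C1 replicate 3 held 2.39 CPM of G6PC against 164 and 116 in replicates 1 and 2. It held 13901 CPM of 7 hepatocyte marker genes together, against up to 57828 in its group. The libraries of lowest correlation with their group mates over log2 CPM were scriptaid C4 replicate 3 (r = 0.817), mocetinostat C2 replicate 3 (r = 0.839) and trichostatin A C1 replicate 3 (r = 0.880). Scriptaid C4 replicate 1 (r = 0.892), mocetinostat C3 replicate 1 (r = 0.895) and apicidin C4 replicate 1 (r = 0.898) came next. These were left out only together with every other library of replicate 1.

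The stretch upstream of the gene start is shown for 4 members, 3 with some of the largest changes at C5 (G6PC, GCKR and SLC2A2) and PYGL with the smallest range. Promoter sequences were taken from RefSeq (GRCh38.p14), which held 7 of the 9 members. PCK1 and GYS2 had no entry. Each line gives the 250 bases before the annotated gene start, 5′ to 3′ on the gene's own strand. Capitals mark matches to any of 5 motifs, which were searched on both strands. The motifs were GTTAAT for the core of an HNF1 site and TGACG for that of a cAMP response element. The others were TTGCNNAA for C/EBP factors, AGAACA for the glucocorticoid receptor and the letters TATAAA for the promoter element bound by the basal machinery. The lines are G6PC (chr17:42900549-42900798, plus strand), GCKR (chr2:27496589-27496838, plus strand), SLC2A2 (chr3:171026721-171026970, minus strand) and PYGL (chr14:50944484-50944733, minus strand).
G6PC: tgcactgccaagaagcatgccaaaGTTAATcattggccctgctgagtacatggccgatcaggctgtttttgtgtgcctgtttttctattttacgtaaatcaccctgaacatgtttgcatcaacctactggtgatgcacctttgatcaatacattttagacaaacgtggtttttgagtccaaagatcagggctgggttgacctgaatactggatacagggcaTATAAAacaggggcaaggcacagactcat
GCKR: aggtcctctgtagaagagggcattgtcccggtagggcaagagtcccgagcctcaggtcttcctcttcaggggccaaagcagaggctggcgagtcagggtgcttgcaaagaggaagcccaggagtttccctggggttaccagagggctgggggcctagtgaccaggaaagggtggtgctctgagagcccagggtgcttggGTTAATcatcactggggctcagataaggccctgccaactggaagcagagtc
SLC2A2: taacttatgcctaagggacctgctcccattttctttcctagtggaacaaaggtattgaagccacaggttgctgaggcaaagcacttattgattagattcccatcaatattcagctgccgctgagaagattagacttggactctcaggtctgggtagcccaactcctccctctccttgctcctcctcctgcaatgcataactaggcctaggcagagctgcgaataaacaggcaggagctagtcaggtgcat
PYGL: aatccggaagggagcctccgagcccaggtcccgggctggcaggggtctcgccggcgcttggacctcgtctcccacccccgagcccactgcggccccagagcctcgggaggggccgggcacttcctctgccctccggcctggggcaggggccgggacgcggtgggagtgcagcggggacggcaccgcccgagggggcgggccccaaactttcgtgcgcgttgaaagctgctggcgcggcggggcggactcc

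The match in G6PC to GTTAAT began at position -226 from the gene start and the match to TATAAA at position -29. In GCKR the match to GTTAAT began at position -51. No other match to these letters lay in the 7 windows, and none of the matches overlapped. Of 27305 promoter windows of the same length, 6.22% held GTTAAT, 21.7% TGACG, 9.13% TTGCNNAA, 11.1% TATAAA and 12.4% AGAACA. The G6PC window was 44% G and C with 3 CpG dinucleotides, that of SLC2A2 48.8% with 2, and that of GCKR 59.6% with 3. In contrast, the windows of SLC37A4 (63.2%, 21 CpG), PCK2 (71.6%, 17 CpG), FBP1 (72.8%, 26 CpG) and PYGL (76%, 27 CpG) were richer in CpG than the median window, which was 58% G and C with 11 CpG. These are 7 windows, and no relation to the expression values was tested.

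At C1 every member other than FBP1 had counts in all 24 libraries, except PCK1, which was at 0 in trichostatin A C1 replicate 3. The median CPM at C1 was 87.4 for G6PC, 72.8 for PYGL, 66.1 for GCKR, 58.3 for SLC2A2, 32.5 for PCK2, 24.0 for GYS2, 5.41 for PCK1 and 2.80 for SLC37A4. The last pair rested on few reads, with a median of 22 counts per C1 library for PCK1 and 10 for SLC37A4, and the highest count of SLC37A4 in any library was 36. The FBP1 probe gave 9 counts in all, in 4 of 118 libraries, and no level or change is reported for it. PCK1 and SLC37A4 did not pass the filter on low counts in vorinostat. This left 62 tests of a member in each contrast, 8 in each of 7 chemicals and 6 in vorinostat.

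Members were called lower in 7 of the 8 chemicals, and in trichostatin A none was called. At C5, 41 of the 62 tests were called lower and 0 higher. Over all probes tested in the 8 chemicals, 13.4% were called lower and 11.6% higher. By unadjusted p under 0.05 1 test was higher at C5, and DESeq2 called 1 higher, both of them SLC37A4 in panobinostat. At C4, 29 tests were called lower (background 8.14%) and 0 higher (7.85%), with 0 higher also by unadjusted p and by DESeq2. Without replicate 2 of every group the count at C4 was 19, and the share of all probes called lower was 5.53%. At C3, 14 were lower (3.16%) and 1 higher (2.82%), and the higher call was PYGL in vorinostat, which was lost without replicate 1 and without replicate 2. At C2, 0 were lower (0.0206%) and 0 higher (0.0659%) by edgeR, while 5 were lower and 1 higher at an unadjusted p under 0.05 and DESeq2 called 1 lower, G6PC in valproic acid.

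**Figure D1:**
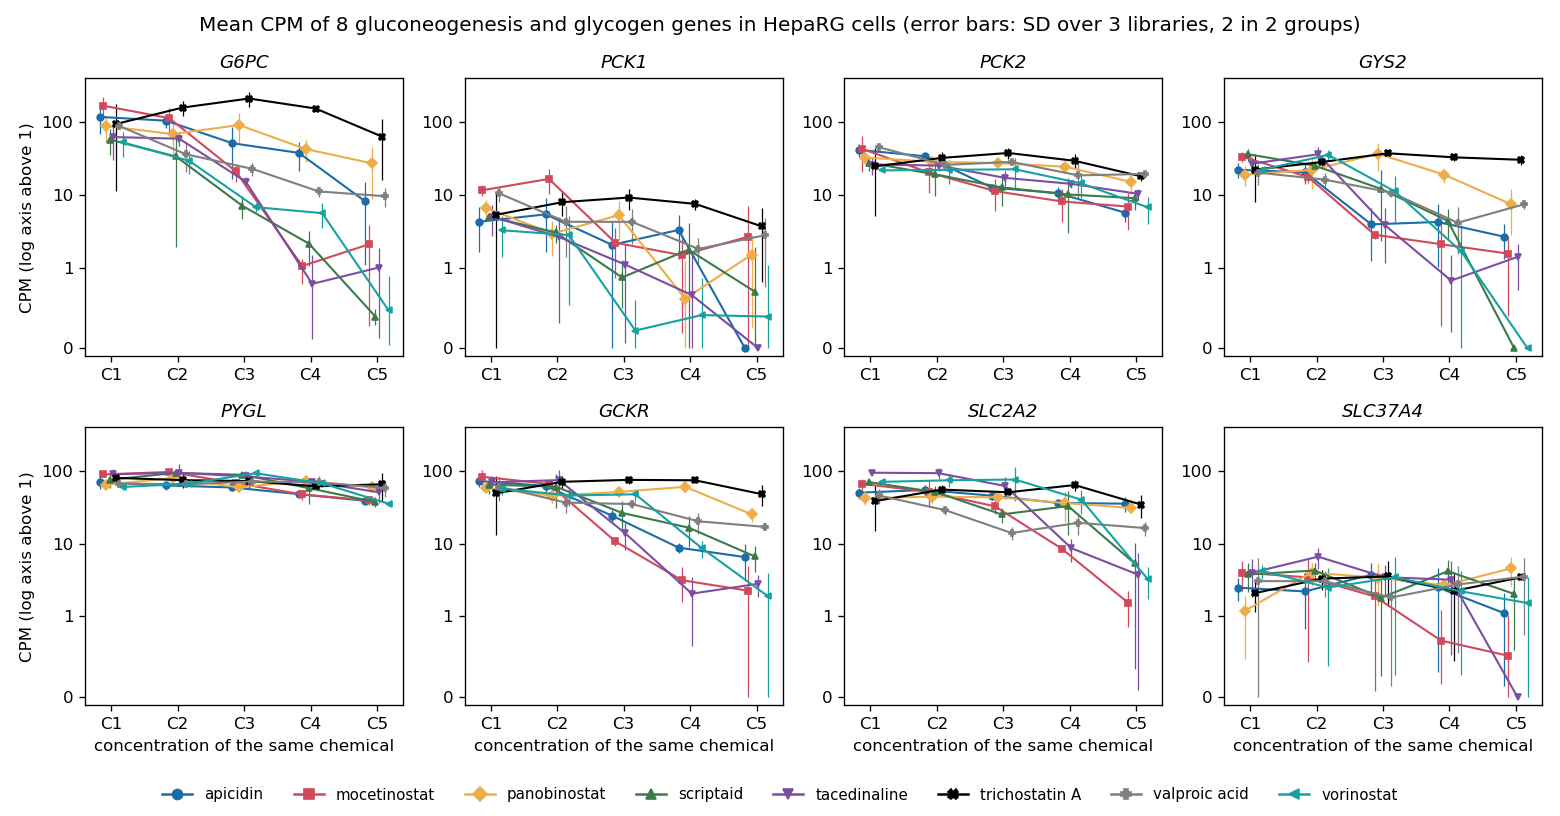
Mean CPM (log axis above 1, linear below) of the 8 measured members at C1 to C5 of each chemical, 1 line per chemical. Bars are the SD over the libraries of a group, cut at 0. For G6PC the mean CPM of mocetinostat goes from 169 at C1 to 2.08 at C5, while no library of PYGL is below 32.0 CPM.

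**Figure D2:**
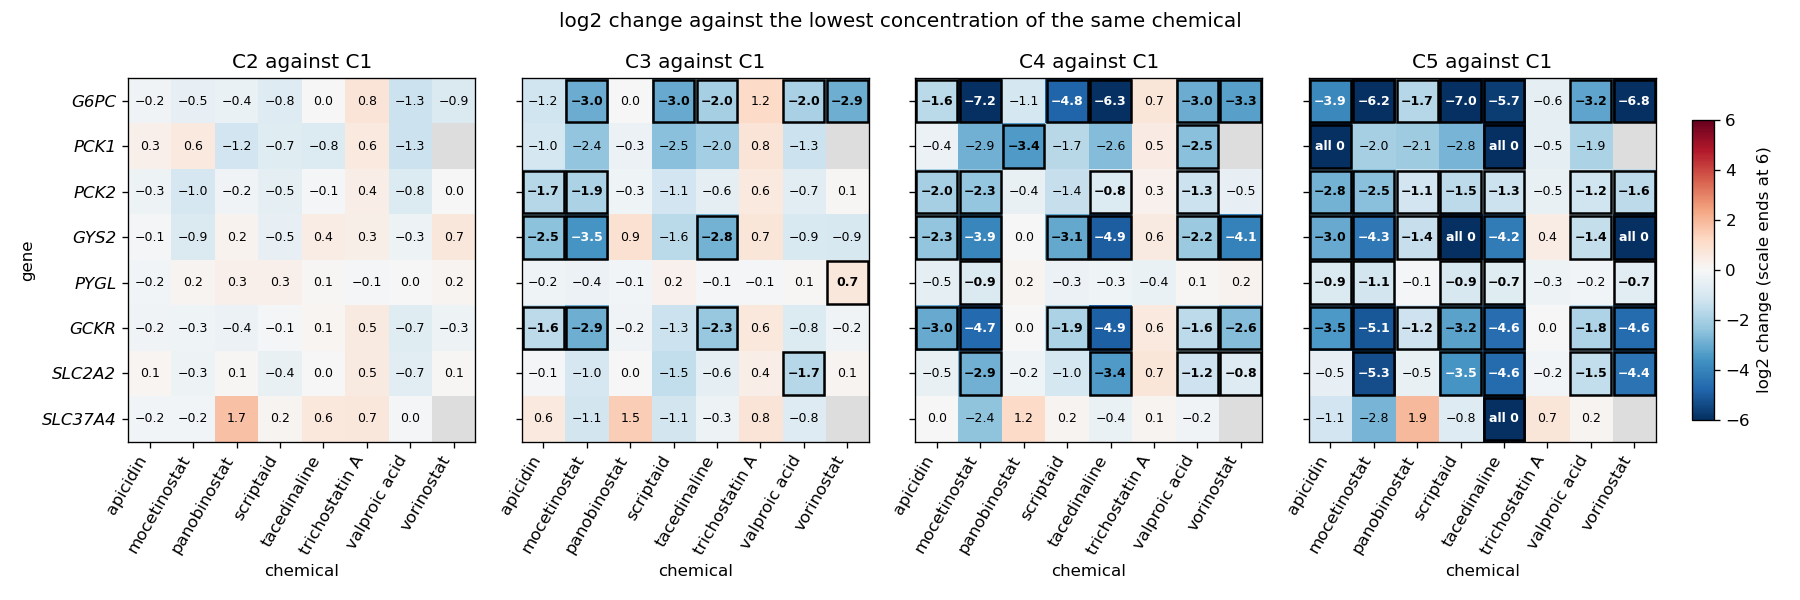
Log2 change of each member against C1 of the same chemical, in 1 panel per concentration. Framed cells passed the test (adjusted p under 0.05 and at least 1.5-fold), grey cells were not tested, and "all 0" marks a group without any count, where the fitted value depends on a prior count. The framed cells number 0 at C2, 15 at C3, 29 at C4 and 41 at C5.

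G6PC, the enzyme of the last step of glucose release, fell at C5 in 7 of the 8 chemicals. In mocetinostat its CPM was 219, 176 and 111 at C1 and 3.87, 0.257 and 2.12 at C5. On the log2 scale this was a change of -6.24 ± 0.58 (SE, edgeR adjusted p = 6.74e-07). In apicidin the values were 173, 106 and 75.7 at C1 and 16.2, 4.65 and 3.48 at C5, a change of -3.86 ± 0.60 (SE, edgeR adjusted p = 4.70e-05). In valproic acid they were 91.5, 78.8 and 94.7 and 11.8, 10.4 and 6.49, a change of -3.18 ± 0.30 (SE, edgeR adjusted p = 1.77e-07). In each of these chemicals every C5 library lay below every C1 library. Tacedinaline went from 97.7, 56.0 and 33.7 CPM to 0, 1.37 and 1.63 CPM, a change of -5.69 ± 0.50 (SE, edgeR adjusted p = 9.53e-13). In scriptaid 3 counts were left over the 3 C5 libraries and in vorinostat 2, and there the ratio of C1 to C5 was 149.9 (51.0 to 729) and 138 (37.9 to 1139.8), with 95% exact intervals that cover counting error only. Panobinostat had the smallest of the called changes. Its CPM was 99.5, 116 and 49.7 at C1 and 20.7, 47.8 and 12.9 at C5, where the highest C5 library (replicate 2) lay just under the lowest C1 library (replicate 3). The change was -1.72 ± 0.43 (SE, edgeR adjusted p = 0.00700), and without replicate 1 it was -1.47 with an edgeR adjusted p of 0.164.

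G6PC was also among the first members to fall as the concentration rose. It was called from C3 upward in 5 chemicals (mocetinostat, scriptaid, tacedinaline, valproic acid and vorinostat), from C4 in apicidin and at C5 in panobinostat. At C2, C3 and C4 of valproic acid its CPM was 54.4, 25.0 and 29.2, then 23.5, 27.2 and 17.7, then 9.98, 13.2 and 10.3. At C2 all 3 of these libraries already lay below the C1 libraries, with a log2 change of -1.29 ± 0.27 that did not pass (edgeR adjusted p = 0.391) but was called by DESeq2 (adjusted p = 0.0310). In apicidin C3 the values were 66.7, 75.6 and 11.5, and the change of -1.20 ± 0.51 passed only with the HepaRG batch as a block (edgeR adjusted p = 0.121 without it and 0.0106 with it). In mocetinostat C4 the CPM was 1.04, 1.31 and 0.803, and in tacedinaline C4 1.55, 0.240 and 0.600, so in both the low level was reached 1 step below the top concentration.

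Of the carboxykinases, the mitochondrial PCK2 fell in the same 7 chemicals, with a smaller log2 change than G6PC in each. Its log2 changes at C5 ran from -1.13 to -2.85 in these chemicals, where those of G6PC ran from -1.72 to -7.04. In apicidin PCK2 went from 46.5, 32.2 and 46.0 CPM at C1 to 13.9, 11.4 and 12.6 at C3 and 5.75, 4.16 and 7.22 at C5, a change at C5 of -2.85 ± 0.29 (SE, edgeR adjusted p = 2.93e-07). In panobinostat it went from 27.3, 32.7 and 37.8 to 14.8, 11.4 and 18.9, a change of -1.13 ± 0.26 (SE, edgeR adjusted p = 0.00348). The C1 and C5 libraries did not overlap in either chemical. In vorinostat the values were 22.4, 21.7 and 21.1 at C1, 17.5, 34.0 and 15.8 at C3 and 8.17, 8.48 and 3.54 at C5, where the change was -1.58 ± 0.42 (SE, edgeR adjusted p = 0.00230). The calls were less firm in 2 chemicals: in scriptaid the change of -1.55 had an edgeR adjusted p of 0.0252 with all libraries, 0.0713 without replicate 1 and 0.212 without replicate 2. At C4 of scriptaid PCK2 had -1.36 ± 0.50 (edgeR adjusted p = 0.129), which was called with the batch as a block (-1.51, edgeR adjusted p = 0.0247). In valproic acid the change of -1.21 had 0.00525 with all libraries, and 0.0996 and 0.0629 without those replicates (edgeR adjusted p).

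The cytosolic PCK1, the form that hormones regulate, had few counts, and the depth limited what could be called. In apicidin its CPM was 6.92, 4.27 and 1.63 at C1 and 0 in all 3 libraries at C5. This is at least 5.66-fold below the C1 mean (a floor of 3 counts per library, edgeR adjusted p = 0.00184). In tacedinaline it was 7.58, 3.26 and 4.15 at C1 and again 0 in all 3 libraries at C5, at least 4.01-fold below the C1 mean (edgeR adjusted p = 0.00279). These were the 2 calls at C5 among 7 chemicals tested. In mocetinostat PCK1 stood at 12.4, 12.9 and 9.43 CPM at C1 and 7.73, 0.257 and 0 at C5, with the batches far apart, and its change of -1.997 ± 1.01 did not pass (edgeR adjusted p = 0.149), whereas without replicate 1 it did (edgeR adjusted p = 0.00778). Panobinostat (-3.40) and valproic acid (-2.52) had a call at C4. At C5 their values were -2.12 and -1.89, which missed the threshold with edgeR (adjusted p = 0.0768 and 0.0719) and passed it with DESeq2 (adjusted p = 0.0290 and 0.0319). With the batch as a block, valproic acid at C5 (edgeR adjusted p = 0.0251) and mocetinostat at C4 (0.0390) were called. Scriptaid had 4.65, 5.52 and 4.94 CPM at C1 and 2.10, 0 and 0 at C5. Its value of -2.78 ± 1.15 missed the threshold (edgeR adjusted p = 0.0746) but passed without replicate 1 (0.0319), without scriptaid C4 replicate 3 (0.0370) and by DESeq2 (0.0289). In vorinostat, where it was not tested, PCK1 had 1.68, 5.29 and 2.80 CPM at C1 and 0, 0 and 1.18 at C5.

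GYS2, the liver glycogen synthase, had no count left in 2 chemicals at the top concentration. In scriptaid its CPM was 35.0, 43.5 and 30.0 at C1, 23.2, 5.73 and 7.10 at C3 and 3.03, 3.60 and 6.57 at C4, and no count was left in any C5 library. This is at least 30.6-fold below the C1 mean (edgeR adjusted p = 3.15e-06). In vorinostat it was 19.6, 23.4 and 23.3 at C1, 41.0, 36.0 and 29.5 at C2 and 4.12, 0 and 0.906 at C4. It was again 0 in all C5 libraries, at least 11.8-fold below the C1 mean (edgeR adjusted p = 1.10e-07). The mean total count fell from 3646506 at C1 to 2325353 at C5 in scriptaid and from 3038905 to 1485592 in vorinostat, and the bounds take in these depths. In vorinostat C2 all libraries lay above C1, with a change of 0.67 ± 0.42 that did not pass (edgeR adjusted p = 1.00).

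In mocetinostat and tacedinaline GYS2 was called from C3 upward, as it was in apicidin and, without C4 replicate 3, in scriptaid (edgeR adjusted p = 0.0144 at C3). Mocetinostat libraries held 36.9, 36.0 and 28.0 CPM at C1, 15.6, 16.4 and 20.8 at C2, 2.92, 3.12 and 2.44 at C3 and 2.58, 1.80 and 0.303 at C5, with a change of -3.53 ± 0.55 (SE, edgeR adjusted p = 5.02e-04) at C3 and -4.29 ± 0.59 (SE, edgeR adjusted p = 4.24e-05) at C5. In tacedinaline they held 42.4, 40.2 and 26.1 at C2 and 2.05, 2.57 and 6.95 at C3. The C1 values were 23.6, 33.8 and 22.9, below C2 in each batch. Over the 5 chemicals that kept counts and were called, the log2 change at C5 ran from -1.39 to -4.29. The least firm calls were panobinostat, with 21.5, 23.1 and 12.6 CPM at C1 and 12.3, 3.15 and 6.85 at C5, and valproic acid, with 13.6, 26.6 and 20.4 and 8.44, 7.35 and 6.49. The panobinostat call (-1.39, edgeR adjusted p = 0.0296) was lost without any 1 of the replicates, with edgeR adjusted p of 0.0580, 0.207 and 0.0722 without replicates 1, 2 and 3. The valproic acid call (-1.42, 0.0177) was lost without replicate 1 (0.0673) and without replicate 2 (0.217).

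PYGL, the phosphorylase that degrades the store, had smaller changes than GYS2. It was called lower at C5 in 5 of 8 chemicals, and its log2 changes ran from -0.14 to -1.10 with trichostatin A left aside. In mocetinostat its CPM was 82.8, 90.6 and 96.1 at C1 and 33.8, 41.6 and 43.0 at C5, a change of -1.10 ± 0.22 (SE, edgeR adjusted p = 0.00106). In apicidin it was 72.5, 84.9 and 55.0 and 41.6, 39.4 and 35.8, a change of -0.85 ± 0.20 (SE, edgeR adjusted p = 0.00232). In both the groups did not overlap. In vorinostat PYGL first rose and then fell. It stood at 60.3, 54.2 and 66.5 CPM at C1, 97.9, 87.5 and 94.4 at C3 and 37.6, 33.0 and 36.0 at C5. The change was 0.66 ± 0.19 (SE, edgeR adjusted p = 0.0239) at C3 and -0.66 ± 0.20 (SE, edgeR adjusted p = 0.00620) at C5, and the 3 groups did not overlap. The call at C3 was lost without replicate 1 and without replicate 2, and the call at C5 with library totals alone. In scriptaid the change was -0.95 ± 0.29 (SE, edgeR adjusted p = 0.0188) and in tacedinaline -0.72 ± 0.22 (SE, edgeR adjusted p = 0.00796). The calls in scriptaid and tacedinaline were also lost with library totals alone. Without replicate 1 the edgeR adjusted p was 0.127 in scriptaid and 0.152 in tacedinaline. Without replicate 2 it was 0.242 in scriptaid and 0.0623 in apicidin, and without replicate 3 0.0577 in tacedinaline. In panobinostat the C1 libraries held 58.1, 66.9 and 69.5 CPM and the C5 libraries 52.7, 62.6 and 63.3, which overlap.

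GCKR, the regulatory partner of glucokinase, fell at C5 in the same 7 chemicals as G6PC. In mocetinostat it went from 103, 82.9 and 64.6 CPM at C1 to 11.4, 11.6 and 9.23 at C3 and 0.773, 5.39 and 0.606 at C5, a change at C5 of -5.07 ± 0.57 (SE, edgeR adjusted p = 5.10e-06). In tacedinaline it went from 86.8, 62.5 and 60.5 to 0.777, 3.59 and 1.80 at C4 and 3.46, 1.71 and 3.26 at C5, a change at C5 of -4.57 ± 0.40 (SE, edgeR adjusted p = 1.36e-12). Each C3 library of mocetinostat and each C4 library of tacedinaline lay far below the lowest C1 library. Vorinostat kept GCKR at 57.7, 41.7 and 44.2 CPM at C3, beside 68.7, 54.9 and 48.2 at C1, and fell to 6.18, 10.5 and 9.36 at C4 and 0.817, 4.24 and 0.590 at C5 (change at C5 -4.60 ± 0.43, edgeR adjusted p = 8.74e-11). In panobinostat the level was 59.3, 66.8 and 55.7 at C4, close to the C1 values of 59.4, 60.5 and 56.0, and 30.5, 19.4 and 26.3 at C5, a change of -1.22 ± 0.23 (SE, edgeR adjusted p = 5.38e-04). In valproic acid the change was -1.83 ± 0.29 (SE, edgeR adjusted p = 1.67e-04), and the C5 libraries, at 15.6, 18.0 and 17.5, were closer to each other than the C1 libraries, at 78.5, 67.5 and 36.7. GCKR was called from C3 upward in apicidin, mocetinostat and tacedinaline, from C4 in scriptaid, valproic acid and vorinostat, and at C5 in panobinostat. Without scriptaid C4 replicate 3 it was called at C3 in scriptaid as well (edgeR adjusted p = 0.0187).

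SLC2A2, the glucose carrier GLUT2, had log2 values at C5 that ran from -0.46 to -5.32, again with trichostatin A left aside. It was called lower at C5 in 5 chemicals and not in apicidin, panobinostat or trichostatin A. In mocetinostat its CPM was 57.7, 61.4 and 80.5 at C1 and 0.773, 2.05 and 1.82 at C5, a change of -5.32 ± 0.41 (SE, edgeR adjusted p = 1.11e-07). In vorinostat it was 73.2, 66.2 and 73.4 and 4.90, 1.88 and 2.95, a change of -4.43 ± 0.41 (SE, edgeR adjusted p = 7.36e-11). Tacedinaline and scriptaid changed by -4.64 ± 0.40 and -3.55 ± 0.51 (edgeR adjusted p = 8.36e-13 and 4.54e-05). In these chemicals no C5 library reached the C1 range. Apicidin, in contrast, had 57.2, 53.3 and 40.6 CPM at C1 and 35.0, 44.3 and 27.4 at C5, groups that overlap, with a change of -0.49 ± 0.22 that did not pass (edgeR adjusted p = 0.102). In the same apicidin libraries G6PC, GCKR, GYS2 and PCK2 changed by -3.86, -3.46, -3.03 and -2.85. Panobinostat had 51.8, 36.5 and 38.4 at C1 and 35.3, 27.2 and 30.7 at C5, groups that do not overlap, with a value of -0.46 ± 0.28 that did not pass (edgeR adjusted p = 0.282). The difference in response between chemicals was not tested, since their concentrations differ. In valproic acid SLC2A2 was called from C3 upward, with 39.3, 58.9 and 40.1 CPM at C1, 16.8, 14.1 and 11.2 at C3 and 13.1, 20.2 and 16.1 at C5 (change at C3 -1.71 ± 0.28, edgeR adjusted p = 0.00196). At C3 it was also called in mocetinostat without C2 replicate 3 (-1.002) and in scriptaid without C4 replicate 3 (-1.49), with edgeR adjusted p of 0.0289 and 0.0115.

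**Figure D3:**
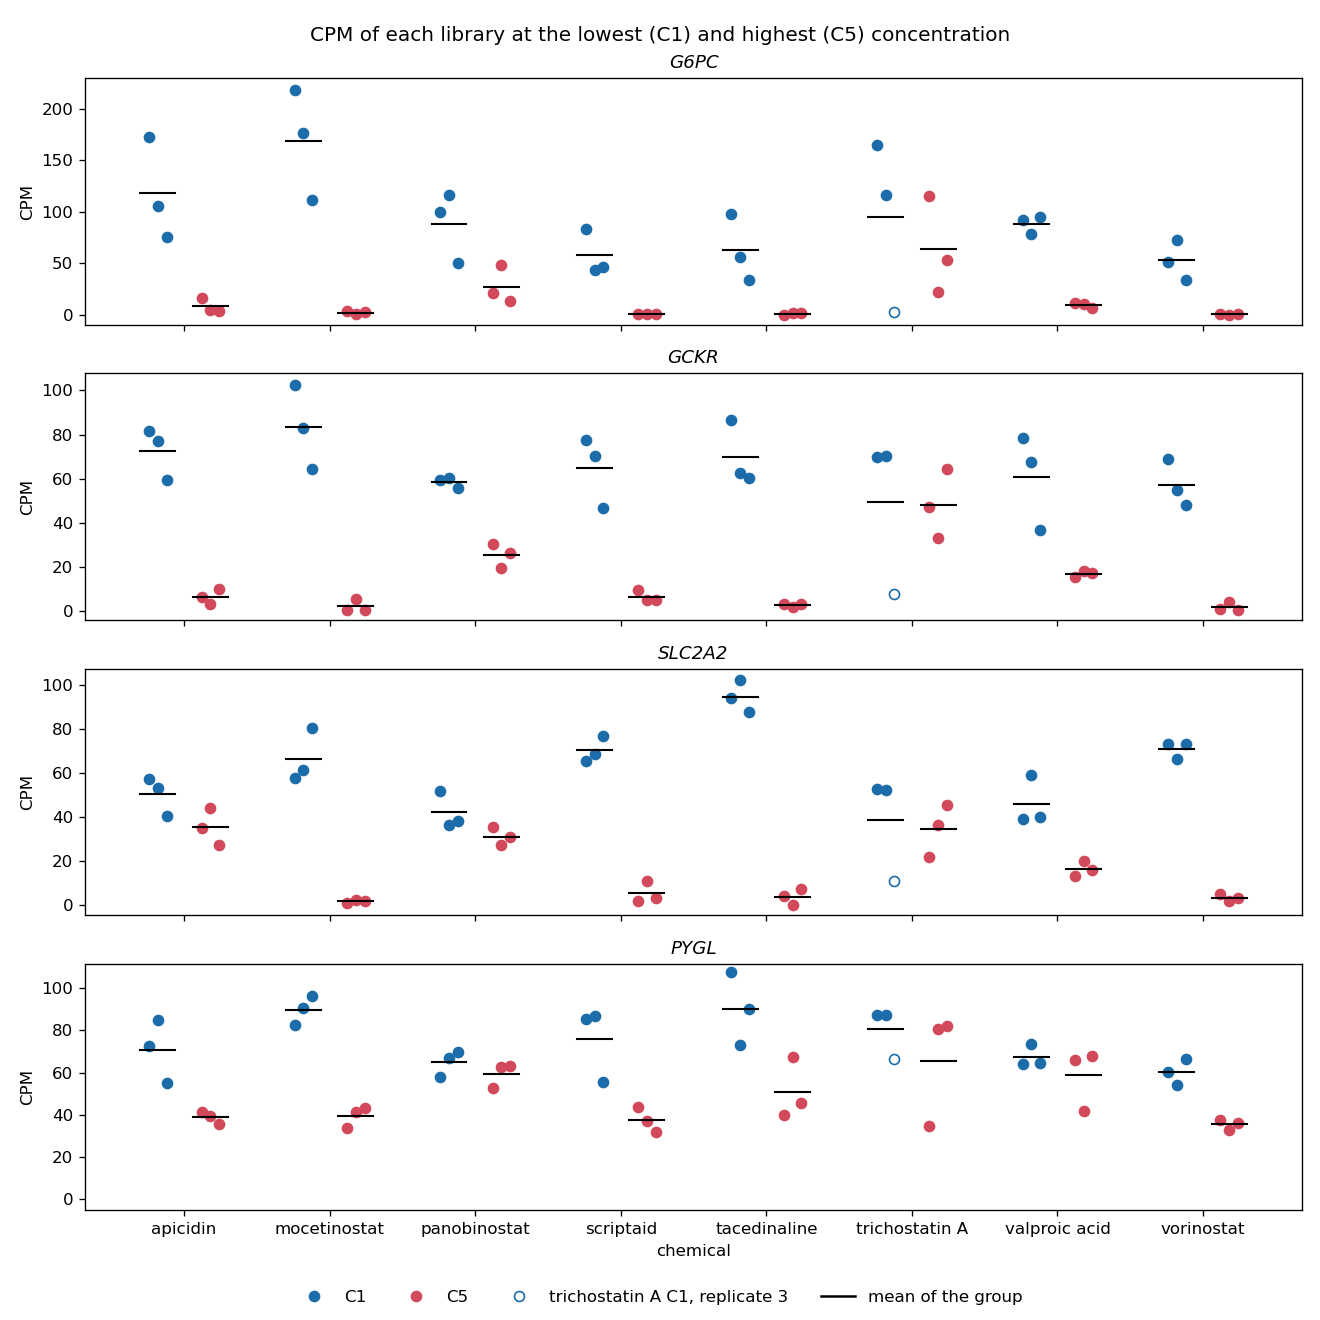
CPM of each library at C1 (blue) and C5 (red) of the 8 chemicals, for G6PC, GCKR, SLC2A2 and PYGL on linear axes. Black bars are group means, and the open circle is trichostatin A C1 replicate 3. The C1 and C5 libraries of SLC2A2 overlap in apicidin and lie far apart in mocetinostat, scriptaid, tacedinaline and vorinostat, while the C5 libraries of PYGL stay at 32.0 CPM or more.

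SLC37A4, the glucose 6-phosphate transporter, was too sparse for firm statements. Its 1 call with edgeR was tacedinaline at C5 (edgeR adjusted p = 5.25e-04). There 1.68, 4.44 and 5.86 CPM at C1 stood against 0 in all 3 C5 libraries. This is at least 3.21-fold below the C1 mean. The lowest C1 library, with 2 counts, was at 1.68 CPM beside a floor of 1.24 CPM at C5. Mocetinostat had 2.37, 5.89 and 3.77 CPM at C1 and 1.03, 0.513 and 0 at C5, groups that do not overlap. Its value of -2.77 ± 1.16 missed the threshold with edgeR (adjusted p = 0.0833) and passed it with DESeq2 (adjusted p = 0.0397). In panobinostat the C1 libraries held 0.434, 1.28 and 1.89 CPM and the C5 libraries 3.36, 6.79 and 3.56. All 3 batches were higher at C5, but the change of 1.93 ± 0.74 did not pass (edgeR adjusted p = 0.0758, DESeq2 adjusted p = 0.0317). The C1 group of panobinostat was the lowest of all C1 groups, at 1.20 CPM, against at most 4.24 CPM in vorinostat.

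Trichostatin A had no call for any member at any concentration. With all libraries edgeR had 0 members at an unadjusted p under 0.05 at each of C2 to C5, and DESeq2 called 0. Over all probes it had 0.0154% called lower and 0% higher at C5. Both counts rested on C1 replicate 3. Without it 4 of 8 members were lower at C5 at an unadjusted p under 0.05 (G6PC, PCK2, SLC2A2 and GCKR). The share of all probes at that unadjusted threshold was not computed, so these 4 have no background beside them. At the threshold of a call 0 of 8 members were lower at C5, beside 0.645% of probes lower and 0.163% higher. G6PC was at 164, 116 and 2.39 CPM at C1, 222, 257 and 156 at C3 and 115, 22.1 and 53.2 at C5. Replicate 3 of C1 lay below every other library of this chemical, and the change at C5 was -0.56 ± 0.70 with it (edgeR adjusted p = 0.862). Without that library, which leaves 2 at C1, the change was -1.14 ± 0.36 for G6PC and -0.99 ± 0.27 for PCK2 (edgeR adjusted p = 0.159 and 0.0855), and again no member was called at C2 to C5. PCK2 was at 32.9, 38.8 and 2.39 CPM at C1 and 16.0, 17.1 and 20.8 at C5, so its C5 libraries lay below replicates 1 and 2 of C1. For GYS2 the C1 values were 33.8, 26.8 and 6.27 and the C5 values 25.1, 34.2 and 31.8, a log2 value of 0.45 ± 0.38 with replicate 3 and 0.00 ± 0.26 without it. GCKR had -0.03 ± 0.46 with it and -0.54 ± 0.24 without it, and SLC2A2 by -0.16 ± 0.39 and -0.60 ± 0.25 (edgeR adjusted p without it 0.364 and 0.326).

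Counted by chemical at C5, tacedinaline had 8 of 8 members lower, against 20.1% of all probes tested in it, and vorinostat 6 of 6, against 24.9%. Apicidin, mocetinostat and scriptaid had 6 of 8 each, against 15%, 15.7% and 17%. Valproic acid had 5 of 8 (background 6.22%) and panobinostat 4 of 8 (9.46%). The median log2 value of the tested members was -3.53 in mocetinostat, -1.45 in valproic acid and -1.18 in panobinostat. With members that had no count set at their bound, it was -3.99 in vorinostat, -3.00 in scriptaid, -3.09 in tacedinaline and -2.67 in apicidin. The median over all probes was between -0.00 and 0.08 at C5 in every chemical. Without replicate 1 panobinostat had 2 members lower at C5 (4.37% of all probes) and valproic acid 3 (2.51%), and without replicate 2 valproic acid had 3 (4.22%). Without the single library scriptaid C4 replicate 3, scriptaid had 4 members lower at C3 in place of 1, 3 at C4 as before and 7 at C5. The share of all probes called lower rose with them, to 3.67% at C3, 6.02% at C4 and 22.6% at C5. Without mocetinostat C2 replicate 3, mocetinostat had 5 lower at C3, 7 at C4 and 6 at C5, where all libraries gave 4, 6 and 6. The share of all probes called lower was then 6.44%, 13.5% and 17.4%.

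Below the top concentration the counts by chemical, read beside the share of all probes called in the same contrast, were as follows. Apicidin had 3 of 8 members lower at C3, with 8.39% of probes lower and 6.94% higher, and 4 of 8 at C4, with 11.2% of probes lower and 11.1% higher. Mocetinostat had 4 of 8 members lower at C3, with 5.14% of probes lower and 6.44% higher, and 6 of 8 at C4, with 11.6% of probes lower and 12.1% higher. Panobinostat had 0 of 8 members lower at C3, with 0% of probes lower and 0.00763% higher, and 1 of 8 at C4, with 1.4% of probes lower and 1.16% higher. Scriptaid had 1 of 8 members lower at C3, with 0.876% of probes lower and 0.461% higher, and 3 of 8 at C4, with 2.67% of probes lower and 2.2% higher. Tacedinaline had 3 of 8 members lower at C3, with 6.46% of probes lower and 5.44% higher, and 5 of 8 at C4, with 16.4% of probes lower and 16.3% higher. Valproic acid had 2 of 8 members lower at C3, with 0.84% of probes lower and 0.293% higher, and 6 of 8 at C4, with 6.35% of probes lower and 5.51% higher. Vorinostat had 1 of 6 members lower at C3, with 3.88% of probes lower and 3.18% higher, and 4 of 6 at C4, with 16.7% of probes lower and 15.6% higher. In vorinostat C3 1 member, PYGL, was higher. At C2 no member was called in any chemical, where the share of probes lower and higher was 0.0315% and 0.0708% in apicidin, 0.0383% and 0.153% in mocetinostat, 0.0883% and 0.297% in tacedinaline, 0.0086% and 0.0086% in vorinostat and 0% in the others. The share in mocetinostat rested on C2 replicate 3, since without that library 15.6% of probes were lower and 14.1% higher at C2, with 0 members called and 1 lower at an unadjusted p under 0.05. At C5 no member was higher, beside 13.8% of probes in apicidin, 14.8% in mocetinostat, 6.77% in panobinostat, 12.8% in scriptaid, 18.7% in tacedinaline, 4.84% in valproic acid and 22.7% in vorinostat.

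The chemicals fall into structural groups, but no concentration was shared between any of them, so the values are set side by side without a comparison. Mocetinostat and tacedinaline are benzamides. G6PC changed by -2.97 at 1.60 µM and -6.24 at 3.9 µM mocetinostat, while at 3.43 µM tacedinaline its value was -0.03, not called, and at 10.3 µM it changed by -1.98. Panobinostat, scriptaid, trichostatin A and vorinostat are hydroxamic acids. For G6PC the highest concentration of panobinostat, 0.084 µM, gave -1.72 and that of trichostatin A, 1.52 µM, gave -0.56, the latter not called. Without trichostatin A C1 replicate 3 the latter was -1.14, also not called. Vorinostat gave -2.92 at 3.64 µM and scriptaid -3.03 at 44.5 µM. Apicidin, a cyclic tetrapeptide, gave -3.86 at 0.86 µM. Valproic acid, a branched short-chain carboxylic acid, gave -3.18 at the highest concentration.

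Markers of the hepatocyte moved in the same libraries as the members. Of 7 marker probes (ALB, APOA1, APOB, TTR, SERPINA1, TF and FGB), all 7 were called lower at C5 in mocetinostat, scriptaid, tacedinaline and vorinostat, 6 in apicidin, panobinostat and valproic acid, and 0 in trichostatin A. Their summed level lay between 42256 and 56508 CPM at C1 of tacedinaline and between 3077 and 4408 CPM at C5, and in panobinostat between 43760 and 52395 CPM at C1 and 23184 and 30124 CPM at C5. None of these markers was at 0 in any C1 library, and ALB had a median of 22461 CPM at C1. Of the cholangiocyte markers (KRT7, KRT19, EPCAM, SOX9, CFTR and SPP1, 8 probes), 4 probes passed the filter in each of the 7 chemicals, of which 1 to 3 were called higher and 0 lower at C5. SOX9 and SPP1 were each called higher in 5 chemicals, 1 KRT19 probe in 1 and the other KRT19 probe in 0. Over the 8 chemicals the median log2 value was 1.06 for SOX9, 1.27 for SPP1, and 0.21 and -0.17 for the KRT19 probes. KRT7 was tested in 1 chemical alone (-1.98, not called). The summed level of the 8 probes went from 82.6 to 97.4 CPM at C1 of apicidin to 201 to 224.9 CPM at C5, while in mocetinostat it was 91.8 to 161 CPM at C1 and 126 to 133 CPM at C5. EPCAM had at most 2 counts in any library, and the median at C1 was 0 CPM for EPCAM, CFTR and 1 of the KRT7 probes. In lysates of whole wells, fewer hepatocyte-like cells and less RNA per cell cannot be told apart, and the part of either in the members' fall was not tested. In apicidin the median log2 value of the hepatocyte markers was -1.78 at C5, beside -3.86 for G6PC, -3.46 for GCKR, -3.03 for GYS2, -2.85 for PCK2, -0.85 for PYGL and -0.49 for SLC2A2. Set side by side at C5, with members without a count at their bound, the median log2 values of members and markers differed by chemical. They were -3.09 and -4.18 in tacedinaline, -1.45 and -1.51 in valproic acid, -3.53 and -3.14 in mocetinostat and -3.00 and -2.77 in scriptaid. In vorinostat they were -3.99 and -3.01, in panobinostat -1.18 and -0.93, and in apicidin -2.67 and -1.78. These differences were not tested.

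**Figure D4:**
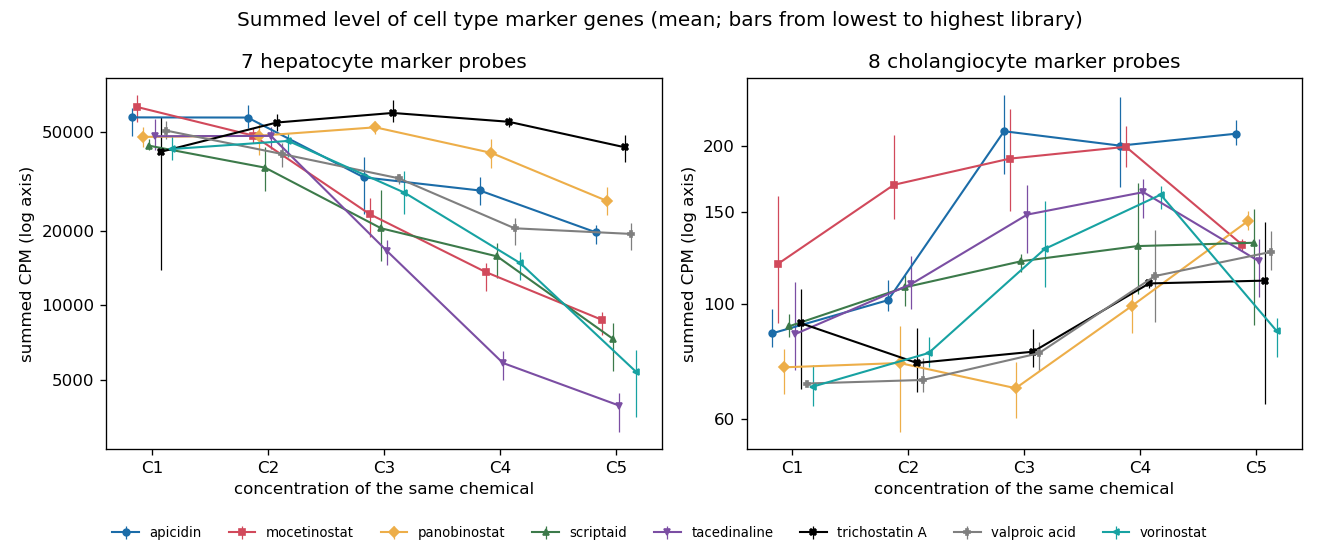
Summed CPM (log axes) of the hepatocyte markers (left) and cholangiocyte markers (right) at C1 to C5, 1 line per chemical. Points are group means, and bars run from the lowest to the highest library. The hepatocyte sums at C5 lie below those at C1 in 7 chemicals, at between 3077 and 4408 CPM at C5 of tacedinaline, and the C1 bar of trichostatin A reaches down to 13901 CPM.

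Other genes of the pathway were listed with the members: 76 symbols, of which 74 had at least 1 probe (TPI1 and GAPDH had none), 83 probes in all. Over the 8 chemicals at C5 these gave 568 tests, of which 142 (25.0%) were lower and 43 (7.57%) higher, beside 13.4% and 11.6% over all probes. By group, 33 of 139 tests were lower and 9 higher for gluconeogenesis and precursor supply, 27 and 7 of 96 for glycogen synthesis, and 18 and 5 of 88 for glycogen breakdown. For glucose phosphorylation and transport the counts were 16 lower and 2 higher of 68, and for hormonal and transcriptional regulators 48 and 20 of 177. The genes named next were among those called in 1 direction in most chemicals, and all of them were lower. GPD1, which links glycerol 3-phosphate to the triose phosphates, was lower in 7 chemicals by -2.10 to -8.18 on the log2 scale. The alanine aminotransferase GPT was lower in 7 (-1.49 to -4.18), the glucose carrier SLC2A10 in 7 (-1.15 to -4.27), PPP1R3B, which targets protein phosphatase 1 to glycogen, in 7 (-1.01 to -2.43), and PHKA2, a phosphorylase kinase subunit, in 7 (-0.75 to -1.19). HNF4A, a nuclear receptor of the hepatocyte, was lower in 6 (-1.74 to -4.59). The glycogen-binding STBD1 was lower in 6 (-0.72 to -2.94), the glycogenin GYG2 in 6 (-0.77 to -2.04) and the phosphoglucomutase PGM1 in 5 (-1.01 to -2.33). These values of GYG2 belong to 1 of its 2 probes, and the other was lower in 4 of 8 chemicals (median -1.02 over all 8). Ties at 5 chemicals were decided by the size of the median log2 change. That rule left out IRS2 and PDK4, each called higher in 5 chemicals and lower in 0. It also left out CREB3L3 (lower in 5, higher in 1) and MLXIPL (lower in 5, higher in 0).

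Across the 40 groups the members were like each other to different degrees. As a description over group means of log2 CPM, which share plates, batches and sequencing runs, Pearson's r was 0.927 for GYS2 with GCKR, 0.891 for G6PC with GCKR and 0.876 for G6PC with GYS2. It was 0.555 for G6PC with PYGL and 0.413 for PCK1 with SLC37A4, the lowest of the 28 pairs. Among 11288 probes tested in all 8 chemicals, GCKR was most like AGXT (r = 0.976), a peroxisomal aminotransferase, and NR1I2 (0.970), the pregnane X receptor. GYS2 was most like APOC1 (0.967) and AGXT (0.961), and G6PC most like ADH1A (0.954) and ALB (0.951). The nearest to SLC2A2 were both probes of the aldehyde oxidase AOX1 (0.953 and 0.931), and the nearest to PCK2 were HSD17B6 (0.900) and RBP4 (0.894). For PCK1 they were CDO1 (0.873) and IP6K2 (0.861), and for PYGL PLXNB2 (0.870) and SEMA4B (0.864). SLC37A4 had no close neighbour, with MARC2 at 0.746 and ST5 at 0.745, and its low counts limit any such value.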

How the data were processed

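TempO-Seq was run on 118 HepaRG lysates, 40 groups in all (8 chemicals, 5 concentrations). The authors deposited raw counts per detector probe, without normalisation, in 1 table of 22069 rows. The 1 row with missing values (a SEC13 probe, 88 libraries) was left out. The submitters' processing notes name bcl2fastq 2.20.422, fastp 0.23.2, STAR 2.7.10b and DESeq2 1.38.0. The counting step, the probe sequences and the genome build are not given in the sources used here. Every column belonged to a sample. The paper supplied with the series describes another experiment and was not used for values or design.

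Each chemical was fitted separately with edgeR 4.0.16 in R 4.3.3 (filterByExpr, TMM scaling, quasi-likelihood F test), with all its concentrations in the model and no batch term. P-values were adjusted over all probes tested in that chemical. A probe was called at an adjusted p under 0.05 and a fold of at least 1.5. The SE was taken as the log2 change over the root of F. Groups without a count were given as a bound, the C1 mean over the CPM of 3 counts per library. Groups with some counts but none above 3 in any library were given as a ratio with its exact 95% interval. Neither covers more than counting error, since reads carry no molecular identifiers. The bound also leaves out the error and spread of the C1 mean. The code was tested on simulated data.

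The labels name the HepaRG batch of each replicate, so replicate numbers pair the libraries. Over 11288 probes, libraries of 1 batch deviated from their group means with a median r of 0.0356 (216 pairs), against -0.0132 between batches (432 pairs). No 2 libraries of a group agreed within sampling noise (lowest chi-square per degree of freedom 3.30). Alternatives were DESeq2 1.42.0, upper-quartile scaling, library totals only, no filter, the batch as a block, 1 fit over all libraries, no fold threshold, leaving out each replicate, and leaving out trichostatin A C1 replicate 3. Leaving out scriptaid C4 replicate 3 or mocetinostat C2 replicate 3 was added after seeing the data.

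All members are named. Of the other pathway genes the 10 called in 1 direction at C5 in most chemicals were taken, of which 1 is not reported here, and for each member the 2 probes of other genes with the highest correlation. The members and lists were chosen with earlier results of these data known.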

Additional observations from a re-analysis of the deposited data

Results flagged for a closer look

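SLC37A4 at C5 lay on opposite sides of C1 in different chemicals, in every batch of those named here. Against C1 of the same chemical, the log2 change was 1.93 in panobinostat (higher in 3 of 3 batches) and 0.73 in trichostatin A (higher in 3 of 3), and it was fitted at -6.58 in tacedinaline (lower in 3 of 3, with 0 counts in all C5 libraries, where the fitted value depends on a prior count). Mocetinostat, which kept counts at C5, was also lower in 3 of 3 batches (-2.77). Apicidin (-1.15) and scriptaid (-0.78) were lower in 3 of 3 batches too. With edgeR the change in tacedinaline alone passed the threshold, and DESeq2 also called panobinostat higher and mocetinostat lower. In panobinostat the mean CPM was 1.20 at C1, 4.00 at C2, 3.42 at C3, 2.68 at C4 and 4.57 at C5, so it was already higher at C2. In trichostatin A the means were 2.09, 3.31, 3.55, 2.25 and 3.45 CPM from C1 to C5. Without C1 replicate 3 its log2 change at C5 was 0.46. The difference between the chemicals was not tested, and their concentrations differ. The probe had at most 36 counts in any library.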

How the results depend on the processing

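Over the 62 single changes at C5, 580 alternative values were computed. Direction and side of the threshold were kept in 535 of them, 22 fell below the threshold, 12 passed it and 11 changed sign. With the HepaRG batch as a replicate block, 15 member tests were lower at C3, 31 at C4 and 42 at C5. The most probes called lower in that fit were 1094 of 12706 at C3 (apicidin) and 2050 of 12461 at C4 (tacedinaline). At C5 they were 2909 of 11631 (vorinostat), and without the block these counts were 1066, 2047 and 2893. In trichostatin A the block gave 0 at C3, 0 at C4 and 1 of 12993 at C5. The block also turned GCKR in trichostatin A to 0.16, and the calls it changed are given beside their genes in the report. In 1 fit over all libraries 2 members were lower at C5 in panobinostat and 0 higher at C3. Of 15632 probes in that fit, 933 were lower at C5 in panobinostat and 150 higher at C3 in vorinostat. DESeq2 called 1 lower at C2 and 1 higher at C5, and without the filter on low counts 1 was lower at C2. By DESeq2, 4 of 12982 probes were lower in valproic acid at C2 and 1074 of 13104 higher in panobinostat at C5. Without the filter the probes lower at C2 ran from 0 in panobinostat to 57 of 19043 in trichostatin A. Leaving out each replicate gave 2 to 3 lower members at C5 in panobinostat, 3 to 5 in valproic acid, and over all chemicals 19 to 30 lower at C4 (30 without mocetinostat C2 replicate 3) and 0 to 1 higher at C3. The share of all probes called lower at C5 was then 4.37% to 8.09% in panobinostat and 2.51% to 5.19% in valproic acid. Over all chemicals 5.53% to 6.89% of probes were lower at C4 and 0.964% to 2.04% higher at C3. Without mocetinostat C2 replicate 3, 13.5% of probes were lower at C4 in mocetinostat.

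The values that changed sign without 1 replicate were uncalled. In trichostatin A the log2 changes ran from -1.14 to 0.025 for G6PC, -0.79 to 0.52 for GCKR, -0.028 to 1.00 for GYS2, -1.10 to 0.050 for PCK2, -0.60 to 0.080 for PYGL and -0.84 to 0.38 for SLC2A2. In valproic acid they ran from -0.34 to 0.076 for PYGL and from -1.04 to 1.74 for SLC37A4. The cause was not tested. With library totals alone the median over all probes at C5 was 0.27 in mocetinostat, 0.22 in tacedinaline and 0.16 in scriptaid and valproic acid, and the calls of PCK2 in scriptaid and of PYGL in scriptaid, tacedinaline and vorinostat were lost. Depth limits PCK1 and SLC37A4 most, and FBP1 could not be measured.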
